A study of Homo sapiens with 2 samples.

Results

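The start sites of 10 genes of the Rb and E2F families were examined for binding of the retinoblastoma protein Rb by chromatin immunoprecipitation and sequencing (ChIP-seq). The genes are RB1, RBL1, RBL2, E2F1, E2F2, E2F3, E2F4, E2F7, E2F8 and TFDP1. A peak was assigned to a gene when its summit lay within 3 kb of the gene's start site on hg19. This gave 7 peaks of 9423 in the prostate cancer cell line VCaP and 10 of 21994 in the prostate cancer cell line LNCaP, with never more than 1 peak per gene and library. Each line is represented by 1 library. Both had been kept for 3 days in 5% charcoal-treated serum, which is poor in steroid hormones, and then treated for 4 h with dihydrotestosterone (DHT), an androgen, at 10 nM, so that DHT is common to all values below. Cells were at passage 10 to 15, and the antibody was the mouse monoclonal 4H1 against Rb. Neither cells without DHT, nor input DNA, nor further cultures were analysed here. The spread between cultures is therefore unknown, and no test between the lines is given.

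Rb belongs with p107 (gene RBL1) and p130 (gene RBL2) to the pocket proteins, which bind E2F transcription factors and hold back genes needed for entry into S phase. E2F1, E2F2 and E2F3 are classed as activators and bind mainly Rb. E2F4 acts chiefly as a repressor together with p107 and p130, and E2F7 and E2F8 are atypical repressors that bind DNA without a DP partner. TFDP1 encodes DP1, the partner with which the classical E2F proteins bind DNA as a dimer. Several of these genes carry E2F sites in their own promoters and are known as targets of the network they form.

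The promoters of these genes differ in whether they hold an E2F motif. The 250 bases before the RefSeq start site are shown for the 4 genes with the highest LNCaP summit pileup and the 2 with the lowest. They stand for both ends of the LNCaP range only. In VCaP, TFDP1 had 13 tags at the summit, above 45.0% of peaks by pileup. Whether motif and Rb signal go together was not tested. The sequences come from GRCh38.p14, on the strand of the gene and 5′ to 3′. Capitals mark the E2F core, the last 7 letters of TTTCCCGC, TTTCGCGC, TTTGCCGC or TTTGGCGC, on either strand. The windows are chr20:37095998-37096247 (minus strand) for RBL1, chr20:33686386-33686635 (minus) for E2F1, chr6:20401629-20401878 (plus) for E2F3, chr13:113584503-113584752 (plus) for TFDP1, chr16:53434221-53434470 (plus) for RBL2 and chr16:67191905-67192154 (plus) for E2F4.
RBL1: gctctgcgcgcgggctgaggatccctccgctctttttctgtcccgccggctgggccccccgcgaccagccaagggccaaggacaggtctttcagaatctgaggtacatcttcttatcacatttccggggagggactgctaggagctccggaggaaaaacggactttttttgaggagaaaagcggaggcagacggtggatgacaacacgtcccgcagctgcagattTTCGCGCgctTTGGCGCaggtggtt
E2F1: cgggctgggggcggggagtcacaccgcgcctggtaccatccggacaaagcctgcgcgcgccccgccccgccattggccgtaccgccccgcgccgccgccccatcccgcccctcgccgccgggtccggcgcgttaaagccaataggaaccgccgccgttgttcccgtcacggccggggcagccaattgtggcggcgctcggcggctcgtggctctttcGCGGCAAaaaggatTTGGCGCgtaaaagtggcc
E2F3: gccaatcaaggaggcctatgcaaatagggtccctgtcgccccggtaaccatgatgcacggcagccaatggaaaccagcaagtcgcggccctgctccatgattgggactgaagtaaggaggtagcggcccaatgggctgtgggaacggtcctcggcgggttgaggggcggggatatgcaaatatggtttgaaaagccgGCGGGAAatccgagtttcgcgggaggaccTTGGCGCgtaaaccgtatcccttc
TFDP1: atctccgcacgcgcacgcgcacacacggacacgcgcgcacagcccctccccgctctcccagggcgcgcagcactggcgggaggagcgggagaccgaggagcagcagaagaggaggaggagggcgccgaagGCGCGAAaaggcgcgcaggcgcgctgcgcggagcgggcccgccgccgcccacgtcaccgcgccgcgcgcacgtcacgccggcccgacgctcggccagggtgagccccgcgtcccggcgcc
RBL2: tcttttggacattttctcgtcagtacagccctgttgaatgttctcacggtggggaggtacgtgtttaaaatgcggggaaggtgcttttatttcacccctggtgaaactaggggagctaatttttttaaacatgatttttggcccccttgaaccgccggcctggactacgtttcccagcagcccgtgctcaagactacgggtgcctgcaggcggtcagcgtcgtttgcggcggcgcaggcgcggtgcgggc
E2F4: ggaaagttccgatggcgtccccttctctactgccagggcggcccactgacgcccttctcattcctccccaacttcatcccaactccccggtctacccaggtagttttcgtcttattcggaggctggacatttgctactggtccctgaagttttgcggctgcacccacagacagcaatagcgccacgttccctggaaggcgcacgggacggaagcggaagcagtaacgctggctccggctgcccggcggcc

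E2F motifs were found in the promoters of RBL1, E2F1, E2F2, E2F3, E2F7 and TFDP1 and in neither of those of RBL2 and E2F4. The search covered 300 bases, from 250 before to 50 after the RefSeq start, on both strands. One of the 8-letter forms was present in 5 of 8 member promoters, against 3.30% of 34796 RefSeq promoters of the same length. The 7-letter core, which each longer form contains, was present in 6 of 8, against 12.96%. These matches are letters in a window and no measurement of binding. RB1 and E2F8 were not searched, because the table's RB1 entry starts 172699 bp inside the gene and E2F8 has no entry. The member promoters had a median GC content of 62.5% (58.3 to 79.7%), and all promoters 58.7%.

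RBL1 and E2F1 each held a pair of E2F motifs close to the start. In RBL1, TTTCGCGC spanned positions -26 to -19 and TTTGGCGC positions -16 to -9, counted from the start site with -1 as the last base before it. In E2F1, TTTGCCGC lay on the opposite strand at -33 to -26 and TTTGGCGC at -20 to -13. E2F3 had TTTCCCGC on the opposite strand at -53 to -46 and the core TTGGCGC at -24 to -18, and E2F2 had TTTGGCGC at -42 to -35. In TFDP1, TTTCGCGC lay on the opposite strand at -120 to -113. The cores of E2F7 lay farther out, at -176 to -170 and -133 to -127, and had no 8-letter form.

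Other elements known from promoters of cell cycle genes were counted in the same windows. The CCAAT box (CCAAT, the site of NF-Y) was present in 3 of 8 promoters, with 4 copies each in E2F3 and E2F7 and 3 in E2F1, and in 34.6% of all RefSeq promoters. The GC box (GGGCGG, bound by Sp1) was present in 6 of 8, with 6 copies in E2F1, and in 44.9% of all. The cell cycle homology region (TTTGAA or TTCGAA), through which the DREAM complex binds, was present in E2F3 and RBL2 and in 16.4% of all. Of 10 further genes of the pathway (E2F5, FOXM1 and LIN54 besides those named next), 7 had a usable promoter entry (E2F6, TFDP2, LIN9, LIN37, LIN52, RBBP4 and MYBL2). An 8-letter E2F form was found in LIN52 alone of these 7, and the core also in E2F6 and RBBP4. Rb peaks at those genes were not analysed here, since their start sites on hg19 were not at hand.

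All 10 genes had an Rb peak at the start site in LNCaP, and 7 had one in VCaP. The VCaP list lacked a peak at RBL2, E2F4 and E2F8. For comparison, 4.36% of genome positions in LNCaP and 1.95% in VCaP lay within 3 kb of a summit, taking the effective genome size from the file headers. That background covers all positions, not start sites; the share of all gene start sites with a peak was not computed. Members lay far inside the window: the summit farthest from its start site was that of RBL2 in LNCaP, at 403 bp, and the nearest summit beyond 3 kb was another LNCaP peak 6993 bp from the E2F4 start, with a fold enrichment of 5.25.

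The peak summits lay close to the start sites, for most genes upstream of them. The median distance between summit and start was 87 bp in VCaP (30 to 150 bp) and 86.5 bp in LNCaP (4 to 403 bp). The start site itself lay inside the peak for all 10 genes in LNCaP and for 6 of 7 in VCaP, the exception being TFDP1, whose VCaP peak ended 25 bp before the start. At E2F1 the LNCaP summit was 4 bp upstream of the start and the VCaP summit 57 bp upstream. RBL1 (36 bp in LNCaP and 119 bp in VCaP), E2F2 (105 and 63 bp), E2F3 (85 and 30 bp), E2F7 (145 and 87 bp) and TFDP1 (127 and 150 bp) also had both summits upstream. At RB1 the summits fell on either side, 43 bp upstream in LNCaP and 99 bp downstream in VCaP. RBL2 and E2F4, the promoters without an E2F match, had their LNCaP summits downstream, at 403 and 88 bp. The start sites used for the peaks are those of hg19 and the motif positions refer to RefSeq starts on GRCh38.p14, so the offsets of motifs and summits were not subtracted from each other.

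**Figure D1:**
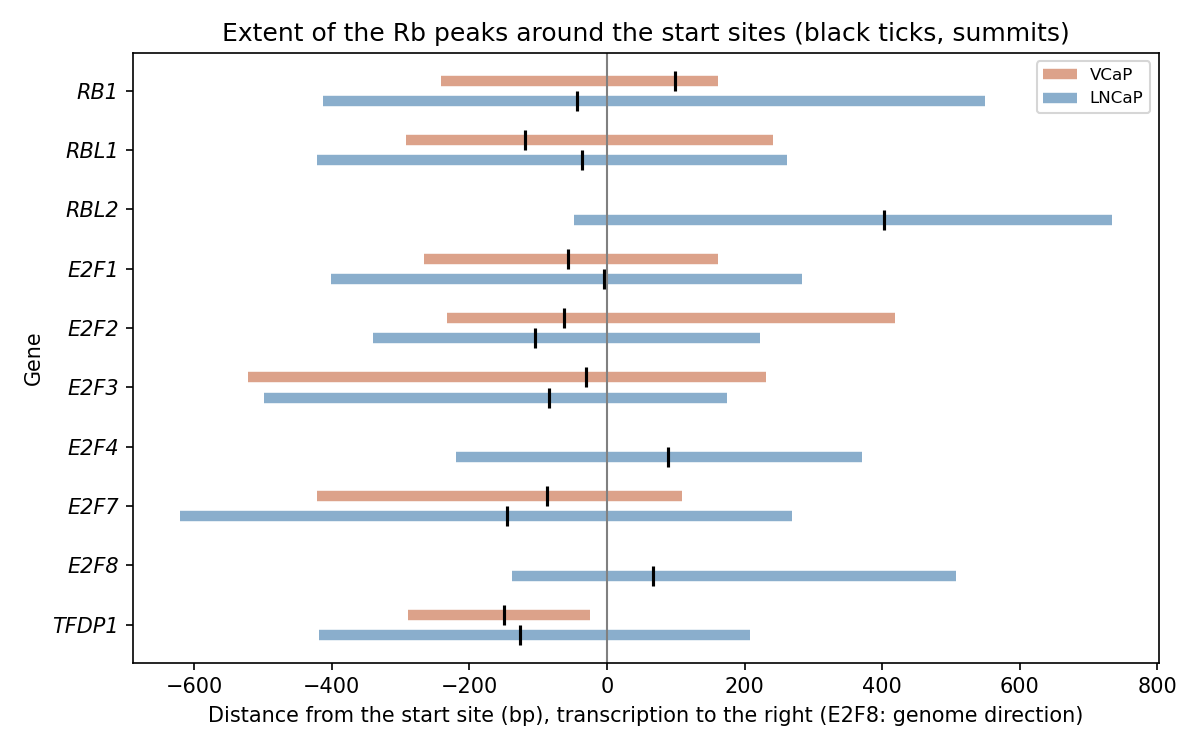
Extent of each Rb peak (bars) and its summit (black tick) in bp from the hg19 start site, with transcription to the right except for E2F8, which is in genome direction. The bars of 10 genes in LNCaP and 6 of 7 in VCaP cross the start site, and the RBL2 summit lies farthest from it, at 403 bp.

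Member peaks were longer than most peaks of their list. Their median length was 531 bp in VCaP (265 to 754 bp) and 679 bp in LNCaP (563 to 964 bp), against 313 and 395 bp over all peaks. All 10 LNCaP peaks and 6 of 7 VCaP peaks exceeded the list median. That median covers all peaks, and the length of peaks at other start sites was not computed. The longest were RB1 in LNCaP, at 964 bp, and E2F3 in VCaP, at 754 bp, and the shortest was TFDP1 in VCaP, at 265 bp.

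The members differed widely in enrichment, and their medians lay above those of the lists. Fold enrichment, the authors' ratio of summit pileup to the local background of the same library, had a median of 8.23 over the 7 VCaP peaks (5.01 to 19.2) and of 10.9 over the 10 LNCaP peaks (4.83 to 17.8). The medians over all peaks were 5.51 and 6.00. A fold of at least 10 was reached by 3 of 7 members in VCaP, against 3.32% of all VCaP peaks, and by 6 of 10 in LNCaP, against 8.02% of all LNCaP peaks. The median member lay above 92.1% of the VCaP list and 94.7% of the LNCaP list. Both lists hold all nuclear peaks, wherever they lie. Members were not compared with peaks at other start sites, so a trait shared by promoter peaks in general cannot be told apart. The intervals given below are exact 95% Poisson intervals of the tags at the summit, with the background held fixed. They cover counting error only, and because the summit is the highest point of its peak, the values lean upward.

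Among the pocket protein genes, RBL1 carried the Rb peak of highest fold enrichment of all members in both lines. In VCaP, 104 extended tags covered the RBL1 summit on chromosome 20 (peak 35724169 to 35724702), a fold enrichment of 19.2 (15.7 to 23.2), which ranked 8 among 9393 nuclear peaks. In LNCaP, 99 tags gave a fold of 17.8 (14.5 to 21.6), rank 52 of 21955, at 35724148 to 35724832. Scaled to 1000000 tags of the library, the pileup was 12.0 in VCaP and 27.0 in LNCaP.

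RB1, the gene of the precipitated protein, had a weak peak in VCaP and a moderate one in LNCaP. Its VCaP pileup was 11 tags on chromosome 13 at 48877641 to 48878044, with a fold of 5.01 (2.71 to 8.64), below the list median and above 31.3% of VCaP peaks. In LNCaP 20 tags gave a fold of 8.50 (5.35 to 12.9), above 83.4% of the list, at 48877470 to 48878433. RB1 was the only member with a VCaP peak whose −log10 q lay under 5, at 4.05. A −log10 q of at least 5 was reached by 6 of 7 VCaP and 9 of 10 LNCaP members, against 55.2% and 66.2% of all peaks.

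RBL2 had the lowest enrichment of all members, and only in LNCaP was a peak listed. There 10 tags on chromosome 16 at 53468303 to 53469085 gave a fold of 4.83 (2.54 to 8.51), above 21.3% of the list, with a −log10 q of 4.10. The nearest VCaP summit was 304 kb away. The 3 pocket protein genes thus spanned from nearly the top of both lists to well below the median of the LNCaP list.

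The 3 activator genes all had Rb peaks in both lines. At E2F1, on chromosome 20 at 32274048 to 32274476 in VCaP, 50 tags gave a fold of 13.6 (10.2 to 17.9), and in LNCaP 70 tags at 32273927 to 32274611 gave 14.8 (11.6 to 18.7). These ranked 80 and 184 in their lists, above 99.1% and 99.2% of peaks.

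E2F3 had the highest pileup of any member in VCaP. On chromosome 6, 111 VCaP tags at 20401615 to 20402368 gave a fold of 11.8 (9.71 to 14.2), and 50 LNCaP tags at 20401639 to 20402311 gave 11.3 (8.43 to 14.8). By pileup it ranked 32 in VCaP, by fold 166, since its 10 kb window held 378 tags, the most of any member. E2F2 was the weakest activator gene. On chromosome 1 at 23857294 to 23857944, 14 VCaP tags gave a fold of 5.93 (3.42 to 9.68), above 63.0% of the list, and 27 LNCaP tags at 23857490 to 23858052 gave 10.4 (6.99 to 15.0), above 93.5%.

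The repressor genes E2F4 and E2F8 had Rb peaks of ordinary strength, in LNCaP alone, whereas E2F7 was high in both lists. At E2F4, 13 LNCaP tags on chromosome 16 at 67225848 to 67226439 gave a fold of 5.45 (3.09 to 9.05), above 38.3% of the list. At E2F8, 15 LNCaP tags on chromosome 11 at 19262369 to 19263014 gave 6.81 (4.00 to 11.0), above 64.7%. At E2F7, on chromosome 12, 25 VCaP tags at 77459251 to 77459781 gave a fold of 7.95 (5.25 to 11.6), above 90.9% of peaks, and 40 LNCaP tags at 77459091 to 77459981 gave 12.4 (8.93 to 16.7), above 97.6%.

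TFDP1 was second to RBL1 in LNCaP and stood in the middle of the members in VCaP. On chromosome 13, 79 LNCaP tags at 114238637 to 114239264 gave a fold of 16.2 (12.8 to 20.1), rank 93 of the list. In VCaP 13 tags at 114238767 to 114239031 gave 8.23 (4.66 to 13.7), above 92.1% of peaks by fold but above only 45.0% by pileup. The VCaP fold rests on the lowest background the peak caller allows, the genome mean of 0.701 tags per fragment length, which was the background of 1.71% of VCaP peaks. The 1 added to pileup and background lowers this fold more than those of the other VCaP members.

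**Figure D2:**
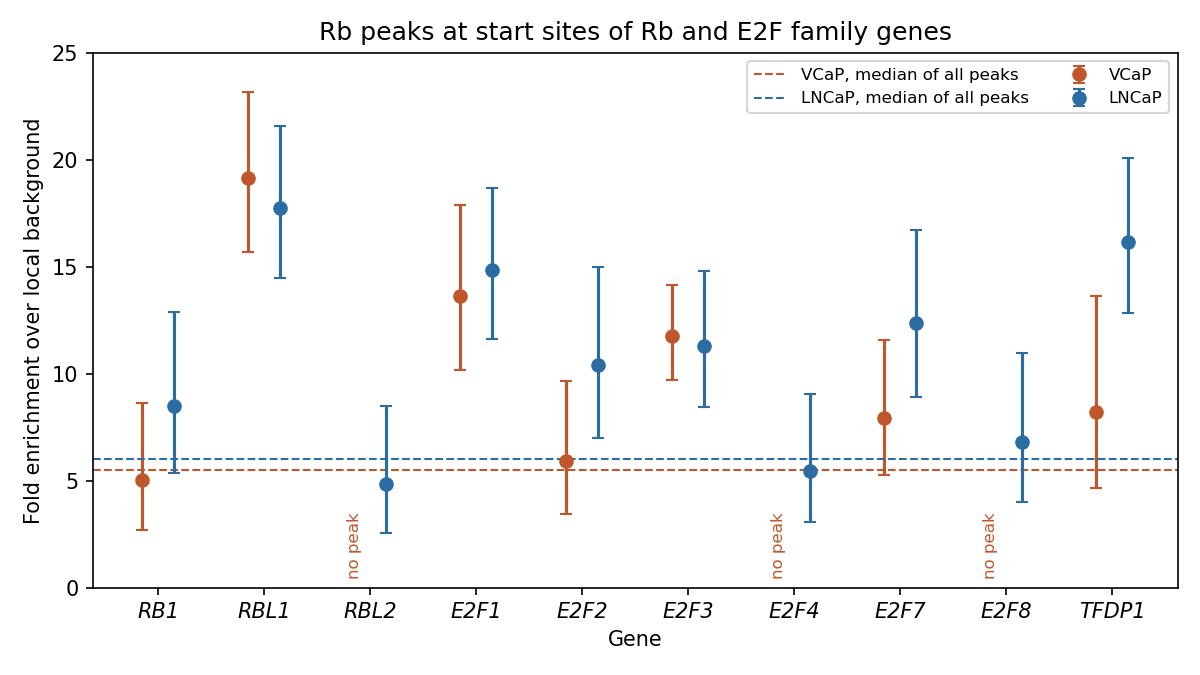
Fold enrichment over the local background for each gene in VCaP (orange) and LNCaP (blue), 1 library each, with 95% Poisson counting intervals and the median of all peaks as dashed lines. RBL1 has the highest fold in both lines, at 19.2 and 17.8, and RBL2, E2F4 and E2F8 have no VCaP peak.

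The order of the members by fold was RBL1, E2F1, E2F3, TFDP1, E2F7, E2F2 and RB1 in VCaP. In LNCaP it was RBL1, TFDP1, E2F1, E2F7, E2F3, E2F2, RB1, E2F8, E2F4 and RBL2. The counting intervals of neighbours in these orders overlapped throughout. RBL1 was separated from 5 of the other members in VCaP (all but E2F1) and from RB1, E2F8, E2F4 and RBL2 in LNCaP. E2F1 and E2F3 in VCaP were separated from E2F2 and RB1. TFDP1 and E2F1 in LNCaP were separated from E2F8, E2F4 and RBL2, and E2F7 from RBL2.

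The 7 genes with peaks in both libraries had them at the same place. All 7 pairs overlapped, against 71.2% of all VCaP peaks with an LNCaP partner, and at RB1, RBL1, E2F1, E2F7 and TFDP1 the VCaP peak lay wholly inside the LNCaP peak, as the LNCaP peak did inside the VCaP peak at E2F3. Their summits were a median of 55 bp apart, between 23 bp at TFDP1 and 142 bp at RB1, against 73 bp over all 6688 overlapping pairs.

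LNCaP had the higher fold at 5 of the 7 genes, against 80.8% of all pairs, a share close to that background. The ratio of LNCaP to VCaP fold was 1.96 at TFDP1, 1.76 at E2F2, 1.70 at RB1, 1.56 at E2F7 and 1.09 at E2F1. It was 0.958 at E2F3 and 0.927 at RBL1, where VCaP was the higher. The median was 1.56 over the 7 genes and 1.32 over all pairs (quartiles 1.07 and 1.62). When peaks had to reach a −log10 q of 5, which left out RB1, the member median was also 1.32. The median of all pairs was not recomputed under that limit. At each of the 7 genes the counting intervals of the folds overlapped between the lines, and the spread between cultures, which is not known, comes on top of them. The 1 added to pileup and background lowers a fold more where the background is low. At TFDP1 the background was 0.701 in VCaP and 3.95 in LNCaP, so the ratio of 1.96 would be smaller without the added 1. At E2F3, with backgrounds of 8.505 and 3.519, the ratio would be higher. Ratios without the added 1 were not computed.

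**Figure D3:**
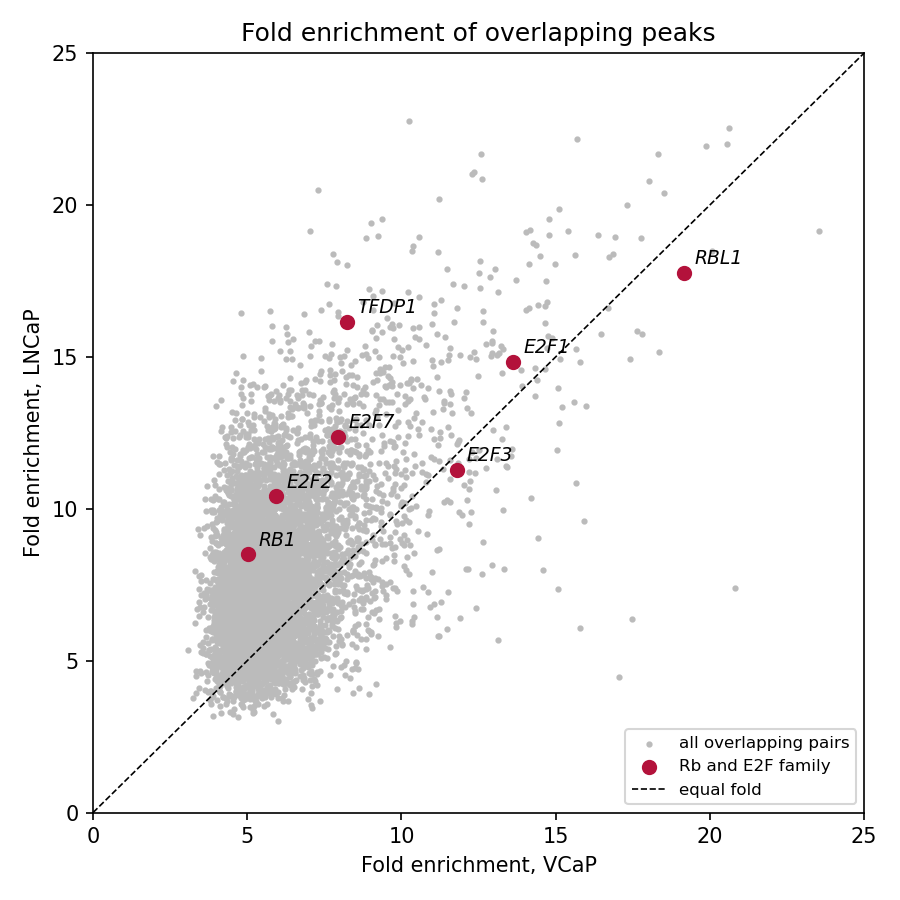
Fold enrichment in VCaP (x axis) against LNCaP (y axis) for all 6688 overlapping pairs (grey) and the 7 member pairs (red), with the line of equal fold dashed. RBL1 and E2F3 lie just below the line, and TFDP1 lies farthest above it among the members, at 8.23 and 16.2.

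On the scale of pileup per 1000000 tags, which is not divided by the local background, TFDP1 differed most between the lines, and E2F3 hardly differed. The TFDP1 pileup was 1.496 per 1000000 tags in VCaP and 21.5 in LNCaP, a ratio of 14.4 (exact conditional 95% interval 7.95 to 28.2), the highest of all 6688 pairs. The E2F3 values were 12.8 and 13.6, a ratio of 1.07 (0.748 to 1.502), which was above that of only 1.45% of pairs. For the other 5 genes the ratio lay between 2.25 at RBL1 (1.69 to 3.00) and 4.57 at E2F2 (2.31 to 9.42), around the median of 3.35 over all pairs (quartiles 2.51 and 4.37). At 6 of 7 genes the interval lay above 1, as it did in 82.2% of all pairs.

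At TFDP1 and E2F3 these contrasts went together with the number of tags in the 10 kb around the site. At TFDP1 the window held at most 3.58 tags per 1000000 in VCaP, the genome mean, and 44.7 in LNCaP. With the genome mean taken for VCaP, the log2 ratio of VCaP over LNCaP was -3.64, an upper bound, and the lowest value computed for any pair, against a median of -1.24. Within 5 Mb of the gene, the 14 pairs at lower coordinates, all at least 2.43 Mb from the start, had ratios between 0.26 and 2.17, whereas the 2 pairs at higher coordinates, 63.0 kb and 0.841 Mb from the start, had -2.76 and -2.74. Those 2 pairs also had pileup ratios of 8.39 and 8.68. At E2F3 the window held 43.5 tags per 1000000 in VCaP and 39.8 in LNCaP, a log2 ratio of 0.13. The 10 other pairs within 5 Mb of E2F3 had log2 ratios between -0.51 and 2.23, with a median of 0.26, and a median pileup ratio of 1.78. The 4 nearest of them, within 0.564 Mb, had log2 ratios between 1.61 and 2.23 and pileup ratios between 0.503 and 0.872. At the other 5 genes the log2 ratio lay between -1.61 (E2F1) and -1.17 (E2F7). Their order did not follow that of the pileup ratios, which were 3.31 at E2F1 and 4.57 at E2F2, with a log2 ratio of -1.29. Tags of the peaks are counted in these windows, so window tags and summit pileup are not independent. DNA copy number was not measured in these files, and its part in the pileup was not tested. The comparison on either side of TFDP1 and that of the nearest pairs at E2F3 were chosen after their values had been seen.

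**Figure D4:**
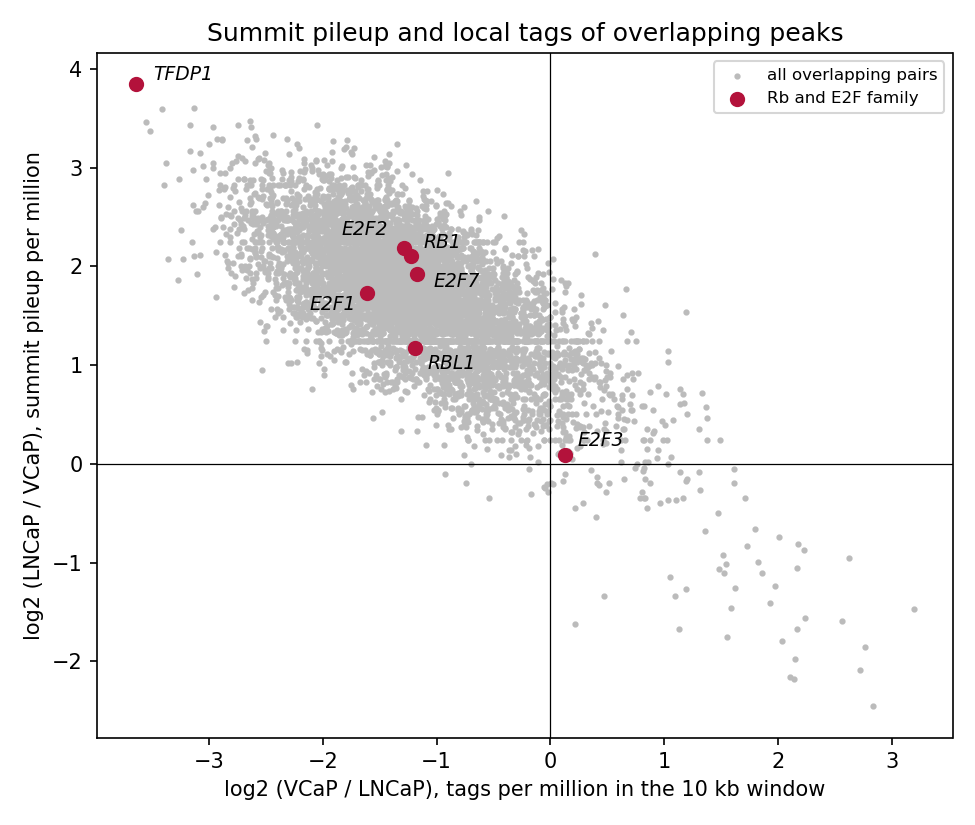
Log2 ratio of LNCaP to VCaP summit pileup per 1000000 tags (y axis) against the log2 ratio of VCaP to LNCaP tags in the 10 kb window (x axis), for all overlapping pairs (grey) and the 7 member pairs (red). TFDP1 lies at the upper left end of all pairs, with a window ratio of at most -3.64 (plotted at this bound), and E2F3 lies near equal values on both axes, at 0.13 in the window.

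The 3 genes without a VCaP peak had the lowest LNCaP folds of the 10 members and pileups near the LNCaP list median of 13 tags. The LNCaP pileups of 10 tags at RBL2, 13 at E2F4 and 15 at E2F8 would correspond to 23.7 (11.4 to 43.5), 30.8 (16.4 to 52.6) and 35.5 (19.9 to 58.6) tags at the depth of the VCaP library. Depth scaling takes no account of the ratio between the lines in overlapping pairs. Their pileup, scaled to library tags, had a median LNCaP to VCaP ratio of 3.35. Divided by that ratio, the values become 7.06, 9.18 and 10.6 tags, at or above 1.6%, 15.3% and 24.8% of VCaP peaks. Divided by the median ratio of the pairs within 5 Mb of each gene, they become 5.6, 6.8 and 8.2 tags. VCaP peaks had a minimum of 6 and a median of 13 tags at the summit. The VCaP pileup at these 3 genes is not known, since peak lists give no value where no peak was called, and a signal under the authors' q limit was not detectable from them.

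The share of LNCaP peaks of like rank that had a VCaP partner was lower than that of the whole list for RBL2 and E2F4, and close to it for E2F8. Among the LNCaP peaks within 500 ranks of RBL2, E2F4 and E2F8 by fold, 13.7% (exact 95% interval 11.7 to 15.9), 18.0% (15.6 to 20.5) and 31.7% (28.8 to 34.6) were overlapped by a VCaP peak, against 30.2% of all LNCaP peaks. These intervals treat peaks as independent, although sharing differed between chromosomes (37.0% of LNCaP peaks on chromosome 20). They are no test against the whole list, which includes the same peaks. RBL2 and E2F4 both lie on chromosome 16, where 18.1% of LNCaP peaks were shared and the median log2 ratio of VCaP to LNCaP window tags was -2.26. Within 5 Mb of RBL2 there were 18 VCaP and 82 LNCaP peaks, and around E2F4 24 and 119. Around E2F8 there were 17 and 64, with a median log2 window ratio of -1.14, near that of all pairs, and a range of -1.99 to -0.58. The nearest pair on either side of E2F8, at 124 and 472 kb, had log2 ratios of -1.34 and -1.78. Their pileup ratios were 6.67 and 5.13, against a median of 4.32 within 5 Mb. These nearest pairs were picked after their values had been seen. The part of local tag number in the missing VCaP peaks was not tested.

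The surroundings of the members ranged from isolated to dense. RB1, E2F2 and E2F3 had no other VCaP peak within 100 kb of the start, and E2F3, E2F7 and E2F8 no other LNCaP peak. The E2F4 start lay among 12 LNCaP peaks within 100 kb and that of E2F1 among 6, their own included. Next to E2F3, at 133 kb, lay an LNCaP peak with a fold of 18.4, higher than that of any member in LNCaP.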

How the data were processed

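Rb ChIP-seq peaks of 1 VCaP and 1 LNCaP library were analysed, assigned from the labels' cell line field. Each library's peaks were called on their own by the authors with MACS 2.1.0.20140616 and no control, per the file headers, at a q-value limit of 0.05, keeping 1 tag per position. After filtering, 8691938 tags remained in VCaP and 3671482 in LNCaP, with modelled fragments of 225 and 241 bp. The submitters' processing notes name hg19, MACS2 and HOMER; the aligner is not given in the sources used here. The deposited pileup is a coverage signal not scaled to depth. The deposited fold enrichment is a ratio to each library's own background, and significance was deposited as −log10 of p and of q.

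Nuclear chromosomes 1 to 22 and X were ranked (Python 3.11.15, pandas 2.3.3, scipy 1.17.1). The background was computed back as pileup plus 1 over fold, minus 1, and expressed as tags per 10 kb. Overlap required 1 bp. The scripts were tested on simulated peaks. Promoter sequences and motif backgrounds came from RefSeq (GRCh38.p14), with 8 of 10 members used. All 10 genes were named, and the members and lists were chosen with earlier results of these data known. Alternatives varied the window, peak limits, ranking and overlap.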

Additional observations from a re-analysis of the deposited data

How the results depend on the processing

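Of 154 recomputed values, 125 stayed the same (identical to 3 digits, or for counts within 1.5 times) and 29 moved. A reversal was defined only for the median ratio of LNCaP to VCaP fold, which stayed above 1 in its alternatives. All 68 fold values of single genes were the same under windows of 500 bp, 1 kb and 10 kb and with the nearest summit. They could hardly differ, because all member summits lay within 403 bp and no gene had more than 1 peak within 3 kb. Only E2F4 in LNCaP had another peak within 10 kb, of lower fold (5.25). These 68 of the 125 unchanged values therefore say little about robustness. With fold enrichment of at least 10, 3 genes kept a peak in VCaP, 6 in LNCaP and 3 in both. The median fold of the members then rose to 13.6 in each library, the median percentile fell to 74.4 in VCaP and 79.6 in LNCaP, and the median distance was 57 and 95 bp. With −log10 q of at least 5 the median folds were 10.01 and 11.3, the percentiles 91.3 and 93.8, the distances 75 and 85 bp, and the median ratio of LNCaP to VCaP fold 1.32. With a fold of at least 5 the percentiles were 88.6 in VCaP and 94.5 in LNCaP, and the LNCaP fold and distance 11.3 and 85 bp. With lists of equal length LNCaP kept 8 genes, with a median fold of 11.8, percentile 92.3 and distance 76 bp. Ranked by pileup the percentiles were 90.8 and 93.7, and by −log10 q 92.3 and 95.5. The ratio of pileup per 1000000 tags in place of fold had a median of 3.79. The 7-letter core of the E2F motif was in 12.96% of all promoters. Tag number limits the precision of peaks with few tags at the summit, such as RB1 in VCaP (11 tags) and RBL2 in LNCaP (10 tags). No paired analysis was possible because each line has 1 library.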
